A study of Mus musculus with 4 samples.

Results

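The genes described here are those of transforming growth factor beta (TGF-beta), activin and bone morphogenetic protein (BMP) signalling: ligands, receptors, antagonists, SMAD proteins, SMAD corepressors and the ID targets. They were chosen by name, 43 in all, with earlier results of these data known, so their shares beside all genes are descriptive. Of the 43, 42 had a probe set, each exactly 1, among 19938 genes on the array. Of these, 41 had a mean signal above the limit used for testing and Bmp5 did not, and Gdf15 is not analysed here. Mouse tumour cell lines 365 and 167 each received a pMIG retrovirus, either with Smarcb1 or empty, and RNA was taken 3 days after infection. Both lines arose in soft tissue tumours of Smarcb1-heterozygous mice that lacked p53, on a C57BL6/SV129J background, and the labels give both parent lines as Smarcb1 deficient and p53 null. Each line and vector was hybridised to 1 array, so there were 4 arrays, 2 with Smarcb1 and 2 with empty vector, and the labels name no selection of infected cells. The design asks which genes respond soon after Smarcb1, which encodes a SWI/SNF chromatin remodelling subunit, is given back to tumour cells that had lost it.

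In this pathway a secreted dimeric ligand brings together type I and type II receptor kinases at the cell surface. The type I receptor phosphorylates receptor SMADs, which join Smad4, enter the nucleus and switch target genes. TGF-beta and activin act through Smad2 and Smad3 and BMPs through Smad1 and Smad5. Secreted antagonists trap ligands outside the cell, inhibitory SMADs act inside it, and ID proteins, which block basic helix-loop-helix transcription factors, are classic BMP targets. In mesenchymal cells the pathway is known for its control of matrix production and of bone, cartilage and fat differentiation.

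Smarcb1 had a log2 signal of 9.61 with Smarcb1 and 6.01 with empty vector in line 365. In line 167 it had 7.83 with Smarcb1 and 4.61 with empty vector, so the arrays match their vector labels. The array medians lay between 5.03 and 5.07 on the log2 scale. The mesenchymal filament gene Vim lay between 13.27 and 13.53. Some other mesenchymal markers differed widely between the lines and some did not. Col3a1 had 6.24 with Smarcb1 and 6.14 with empty vector in line 365, against 11.65 and 11.12 in line 167. Pdgfra had 8.69 with Smarcb1 and 8.77 with empty vector in line 365, against 9.47 and 8.50 in line 167. Of 7 epithelial markers only Epcam was below the testing limit of log2 4.27 on all 4 arrays. The other 6 were tested and were above the limit on every array. Their signals ran from 4.54 (Krt5, empty vector, line 365) to 6.04 (Krt8, Smarcb1, line 167). Of these 6, 0 had an unadjusted limma p under 0.05 between the vectors. Of the leukocyte markers, Ptprc and Adgre1 were below the limit on all arrays and 3 were tested. Among these Cd68, a lysosomal protein gene of macrophages, had 8.18 with Smarcb1 and 9.95 with empty vector in line 365, and 8.69 with Smarcb1 and 9.32 with empty vector in line 167 (limma adjusted p = 0.273, unadjusted p = 0.0106). Csf1r, also tested, had 5.19 with Smarcb1 and 4.73 with empty vector in line 365, and 4.80 and 4.70 in line 167. Cd3e had 5.06 with Smarcb1 and 5.22 with empty vector in line 365, and 4.95 and 4.76 in line 167. The endothelial cadherin gene Cdh5 had 8.29 with Smarcb1 and 9.06 with empty vector in line 365, against 3.64 and 3.78 in line 167, while the endothelial markers Tek and Emcn were below the limit on all arrays. Over the 5 endothelial markers, of which 2 were tested, the mean log2 signal was 4.87 with Smarcb1 and 5.03 with empty vector in line 365, against 3.92 and 3.84 in line 167. The part of these markers in the results was not tested. In RNA from whole cultures, fewer cells of a type and less RNA per cell cannot be told apart.

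Grem1, Fstl1 and Gdf10 were at least 2-fold higher with Smarcb1 in both lines, although none of them passed limma's adjusted threshold. Tgfb2 and Bmp4 had differences of opposite sign in the lines, which were not tested. The promoters of these 5 members are shown here. Each runs from 250 bases before the annotated start site to 50 bases from it on, 5′ to 3′ along the gene's strand, from RefSeq on GRCm38.p6. Capitals mark CAGAC, the core of the Smad binding element, and GGCGCC, a GC-rich element that BMP SMADs can bind, searched on both strands.
Grem1 (chr2:113758599-113758898, minus strand): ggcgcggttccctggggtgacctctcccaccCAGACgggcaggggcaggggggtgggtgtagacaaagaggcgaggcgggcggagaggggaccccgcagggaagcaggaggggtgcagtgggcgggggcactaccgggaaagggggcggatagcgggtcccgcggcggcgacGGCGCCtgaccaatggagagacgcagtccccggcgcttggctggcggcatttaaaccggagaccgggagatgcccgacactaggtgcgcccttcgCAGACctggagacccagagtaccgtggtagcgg
Fstl1 (chr16:37776805-37777104, plus strand): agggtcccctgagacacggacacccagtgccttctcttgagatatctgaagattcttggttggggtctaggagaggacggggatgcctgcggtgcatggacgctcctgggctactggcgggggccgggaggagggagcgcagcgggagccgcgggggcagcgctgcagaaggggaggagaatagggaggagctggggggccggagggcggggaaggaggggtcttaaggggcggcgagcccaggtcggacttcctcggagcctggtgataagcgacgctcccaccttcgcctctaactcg
Gdf10 (chr14:33923337-33923636, plus strand): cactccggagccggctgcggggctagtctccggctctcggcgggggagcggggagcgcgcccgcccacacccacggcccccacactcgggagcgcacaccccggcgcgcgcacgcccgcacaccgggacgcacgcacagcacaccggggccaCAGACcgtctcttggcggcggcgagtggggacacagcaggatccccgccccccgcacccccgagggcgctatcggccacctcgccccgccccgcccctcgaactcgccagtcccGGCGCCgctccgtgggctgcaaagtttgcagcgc
Tgfb2 (chr1:186705940-186706239, minus strand): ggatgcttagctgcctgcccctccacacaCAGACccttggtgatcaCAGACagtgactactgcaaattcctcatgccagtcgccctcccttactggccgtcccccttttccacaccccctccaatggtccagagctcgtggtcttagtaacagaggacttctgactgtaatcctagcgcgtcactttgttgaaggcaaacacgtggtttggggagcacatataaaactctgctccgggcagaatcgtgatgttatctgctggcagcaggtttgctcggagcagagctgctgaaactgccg
Bmp4 (chr14:46390620-46390919, minus strand): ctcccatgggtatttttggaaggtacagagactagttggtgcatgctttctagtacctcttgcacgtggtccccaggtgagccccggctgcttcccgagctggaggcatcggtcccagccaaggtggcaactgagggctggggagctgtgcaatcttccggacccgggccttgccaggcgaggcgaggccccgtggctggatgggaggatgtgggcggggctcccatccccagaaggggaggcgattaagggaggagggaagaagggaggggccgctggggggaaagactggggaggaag
Grem1 held CAGAC 219 bases before the start site and again 17 after it, with GGCGCC 78 before it. Gdf10 held CAGAC 98 bases before and GGCGCC 16 after, Tgfb2 held CAGAC 221 and 204 bases before, and Fstl1 and Bmp4 held neither motif. CAGAC occurred in 20 of 40 member promoters (50%), which belong to 30 genes, against 49.6% of all 32851 promoters of this length. The remaining members, among them Tgfb3, Bmp2, Tgfbr3, Chrdl1, Fst, Bambi and Skil, had no promoter entry. A gene with several promoters was counted once for each. GGCGCC occurred in 11 of the 40 (27.5%), against 11.9% of all promoters. The AP-1 element TGANTCA occurred in 0 of the 40, against 7.81% of all. The members' promoters were also richer in G and C, with a median of 64.7% against 52.7%. The motifs do not overlap in the 5 windows shown, and a match is a description of letters, not of binding.

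With Smarcb1, 0 of the 41 tested members passed the limma test (Benjamini-Hochberg adjusted p under 0.05), against 0.0645% of all 13956 tested genes called in either direction. At an unadjusted p under 0.05, 10 members were higher (24.4%; 5.88% of all tested genes) and 0 were lower (5.68% of all tested genes). These 10 were the ligand genes Tgfb3, Inhba and Gdf10, the receptor gene Bmpr1b, the antagonist genes Grem1, Chrdl1, Fstl1 and Bambi, and Smad3 and Id1. The median change over the 41 members was 0.26 on the log2 scale, with 0.15 in line 365 and 0.26 in line 167. Over all tested genes the median change was -0.03, with -0.0059 in line 365 and -0.06 in line 167. What the test counts as error is how far the 2 lines differ in their response, with 1 residual degree of freedom. A single line has 1 array per vector, so its own values have no test.

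The changes were uneven between the lines. In line 365, 3 members were at least 2-fold higher (7.32%; 2.84% of all tested genes) and 2 at least 2-fold lower (4.88%; 1.17% of all). In line 167, 11 members were at least 2-fold higher (26.8%; 3.4% of all) and 0 at least 2-fold lower (1.49% of all). Gdf10, Grem1 and Fstl1 were at least 2-fold higher in both lines (7.32%; 1.33% of all), and 0 members were at least 2-fold lower in both (0.186% of all). The 8 genes at least 2-fold higher in line 167 alone were Tgfb2, Tgfb3, Inhba, Bmp2, Bmp4, Tgfbr3, Chrdl1 and Skil. Tgfb2 was also 1 of the 2 genes at least 2-fold lower in line 365, the other being Bmp6. The sign was the same in both lines for 19 of 41 members (46.3%; 60.1% of all). Across the 41 members the changes of the lines, which share no array, had r = 0.24 and rho = 0.11, against r = 0.44 and rho = 0.32 across all tested genes.

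**Figure D1:**
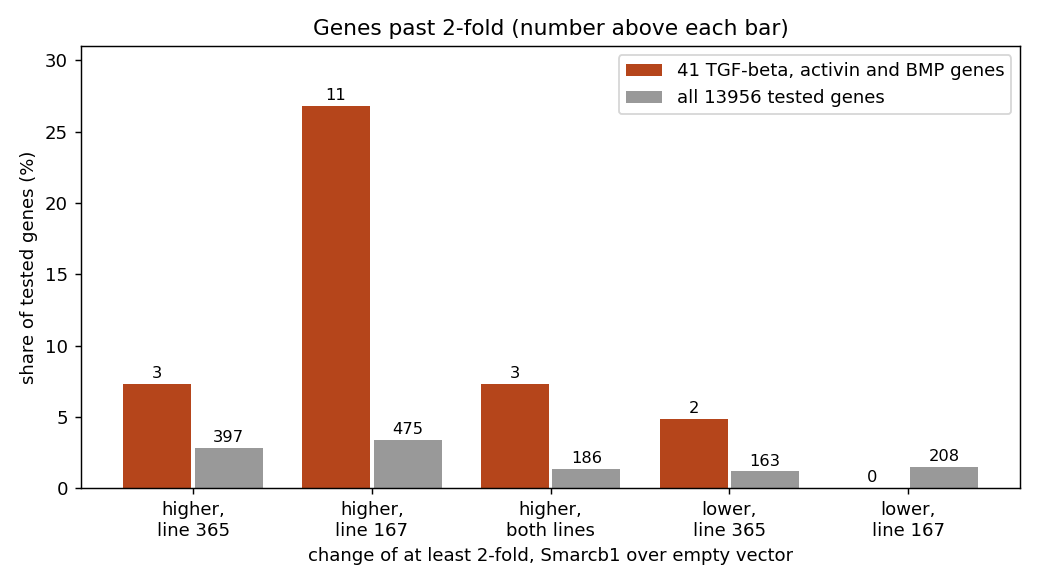
Bars give the share of tested genes (percent, linear axis from 0) with a change of at least 2-fold, Smarcb1 over empty vector, for the 41 members and for all 13956 tested genes, with the number of genes above each bar. In line 167 the members' share of higher genes is 26.8%, against 3.4% of all tested genes.

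Among ligand genes, 5 of the 10 tested were higher in both lines (26% of all tested genes) and 0 lower in both (34.1% of all), and 0 passed limma's adjusted threshold. Gdf10, which encodes a ligand related to BMP3, had 6.75 with Smarcb1 and 5.65 with empty vector in line 365, and 8.09 with Smarcb1 and 5.40 with empty vector in line 167. Both Smarcb1 arrays were above both empty-vector arrays. Within a line that order follows from Gdf10 being at least 2-fold higher in both lines. The change was 1.10 in line 365 and 2.69 in line 167, with a mean of 1.89 ± 0.41 (moderated SE) and a limma adjusted p of 0.234. Tgfb3, one of the TGF-beta ligands, had 8.22 and 7.93 with Smarcb1 and empty vector in line 365, and 10.16 and 8.14 in line 167. Both Smarcb1 arrays were above both empty-vector arrays. The change within a line was 0.28 in line 365 and 2.02 in line 167 (limma adjusted p = 0.418). Inhba, which encodes a subunit of activin, had 6.76 and 6.28 with Smarcb1 and empty vector in line 365, and 7.79 and 6.20 in line 167. The empty-vector arrays lay within 0.08 of each other and both Smarcb1 arrays were above them. The change within a line was 0.48 in line 365 and 1.59 in line 167 (limma adjusted p = 0.342). Bmp2 had 4.35 and 4.21 with Smarcb1 and empty vector in line 365, and 5.05 and 3.96 in line 167. Both of its empty-vector arrays were below the testing limit, where signal above background was not shown, so the size of its change is uncertain.

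Tgfb2 and Bmp4 had differences of opposite sign in the lines. Tgfb2, another TGF-beta ligand, had 6.02 with Smarcb1 and 7.37 with empty vector in line 365, and 5.53 with Smarcb1 and 4.41 with empty vector in line 167. Its Smarcb1 arrays lay between the empty-vector arrays, with a change of -1.35 in line 365 and 1.12 in line 167. The signal of 4.41 was close to the testing limit of log2 4.27. The sizes of the change in line 167 and of the line difference with empty vector are therefore uncertain. Bmp4, a BMP ligand important in mesoderm, had 7.60 with Smarcb1 and 8.37 with empty vector in line 365, and 8.06 with Smarcb1 and 6.10 with empty vector in line 167. Here too the Smarcb1 arrays lay between the empty-vector arrays, with -0.77 in line 365 and 1.96 in line 167. Bmp6, a BMP ligand also known from iron regulation, had 6.61 with Smarcb1 and 8.35 with empty vector in line 365, and 5.79 with Smarcb1 and 5.68 with empty vector in line 167. It averaged 3.34-fold more in line 365 than in line 167, which did not pass (limma adjusted p = 0.0827), and its change was -1.73 in line 365 and 0.11 in line 167. Of the remaining ligand genes, Tgfb1 differed by 0.39 and -0.0065 in lines 365 and 167, Inhbb by 0.31 and 0.45 and Bmp7 by -0.14 and 0.05, and Bmp7 was close to the testing limit on every array. Bmp5, not tested, had 3.77 and 3.82 in line 365 and 3.83 and 4.08 in line 167 with Smarcb1 and empty vector, all below the limit.

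**Figure D2:**
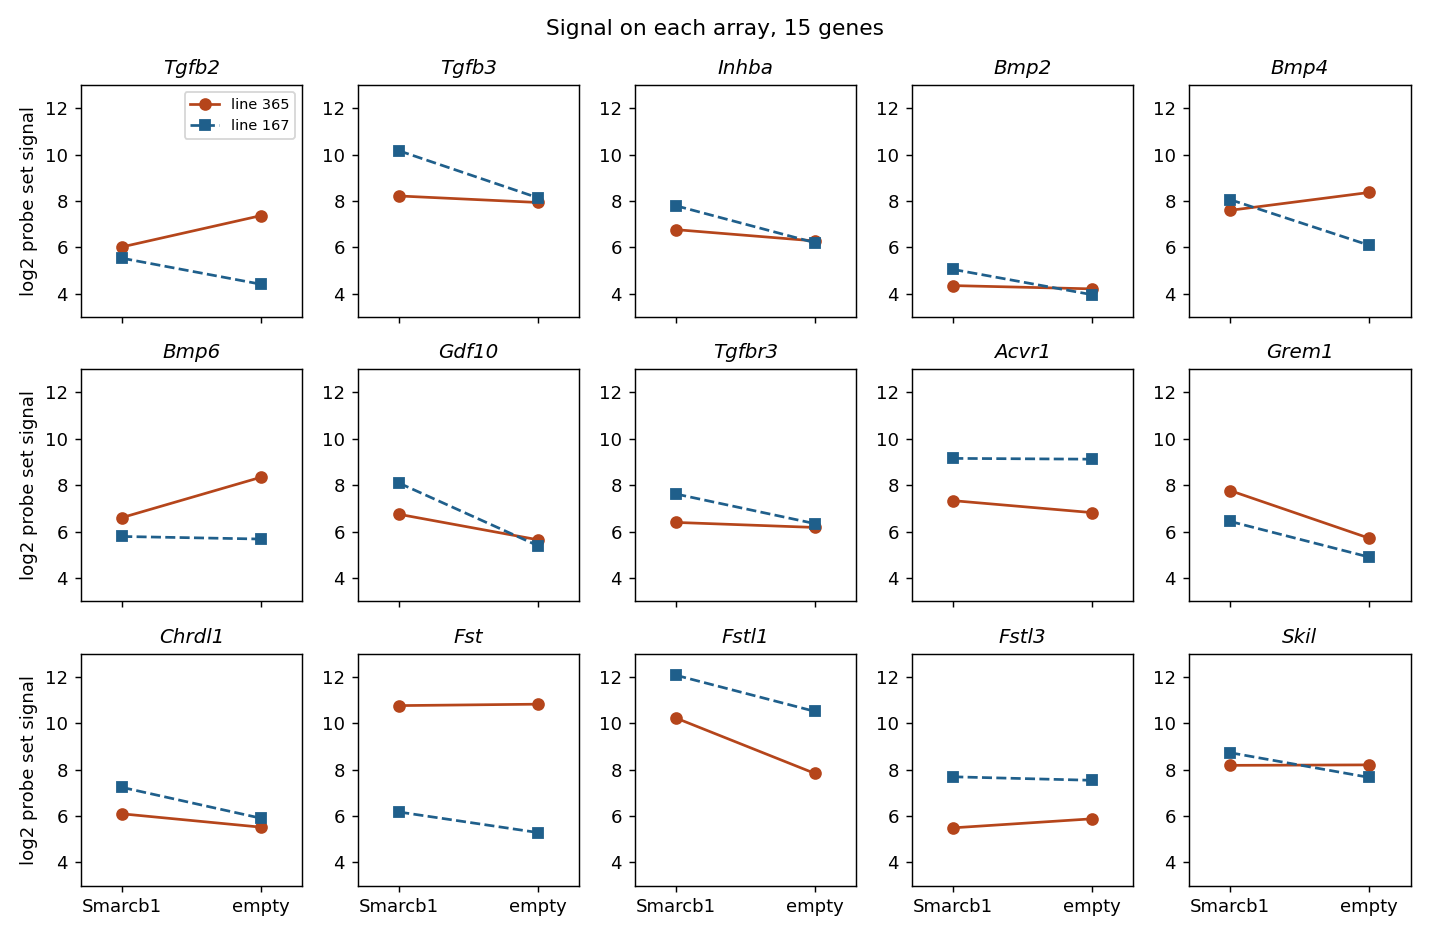
Each panel shows 1 gene, with the log2 probe set signal of the Smarcb1 array on the left and of the empty-vector array on the right, joined for line 365 (circles, solid) and line 167 (squares, dashed), 1 array per point. Signals are to be compared within a gene only. Grem1, Fstl1 and Gdf10 slope down to the right in both lines, while Tgfb2 and Bmp4 slope in opposite directions.

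Receptor genes showed small changes with Smarcb1, and 0 of 10 passed. Their median change was 0.12 in line 365 and 0.04 in line 167. Tgfbr3 encodes betaglycan, a co-receptor that presents TGF-beta to the signalling receptors. It had 6.40 and 6.18 with Smarcb1 and empty vector in line 365, and 7.62 and 6.35 in line 167, and it was the 1 receptor gene past 2-fold, by 1.27 in line 167 against 0.22 in line 365 (limma adjusted p = 0.456). Bmpr1b, a type I BMP receptor gene, was higher by 0.71 in line 365 and 0.31 in line 167, from an empty-vector signal in line 167 of 4.14, which is below the limit (limma adjusted p = 0.360). Acvr1b, the type I activin receptor gene, differed by 0.81 in line 365 and -0.22 in line 167, and Tgfbr1, its TGF-beta counterpart, by 0.55 and 0.04. The type II receptor genes Tgfbr2, Acvr2a, Acvr2b and Bmpr2 stayed between -0.34 and 0.19 in all their single-line changes, with limma adjusted p of 0.754 or higher. Bmpr1a, another type I BMP receptor gene, differed by 0.02 in line 365 and -0.01 in line 167.

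The secreted and membrane antagonists held the members closest to the threshold, and 0 of 8 passed. Fstl1, which encodes a secreted follistatin-like glycoprotein that can bind BMP ligands, had 10.22 with Smarcb1 and 7.84 with empty vector in line 365. In line 167 it had 12.06 with Smarcb1 and 10.51 with empty vector. Smarcb1 was above empty vector within each line, while the Smarcb1 array of line 365 was below the empty-vector array of line 167. Fstl1 was higher by 2.38 in line 365 and 1.55 in line 167, with a mean of 1.97 ± 0.22 (moderated SE), or 3.91-fold, and a limma adjusted p of 0.0865. Fstl1 was called in limma at 0.05 under other settings, with adjusted p = 0.0486 when dim genes were kept, 0.0318 when the filter was raised to the 50th percentile and 0.0486 after cyclic loess, and its adjusted p ranged from 0.0318 to 1.0 over 8 alternatives, the highest with the line left out of the model.

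Grem1, which encodes gremlin, a secreted BMP antagonist, had 7.77 with Smarcb1 and 5.72 with empty vector in line 365, and 6.44 with Smarcb1 and 4.91 with empty vector in line 167. Both Smarcb1 arrays were above both empty-vector arrays. Within a line that order follows from Grem1 being at least 2-fold higher in both lines. The mean change was 1.79 ± 0.22 (moderated SE), or 3.46-fold, with 2.05 in line 365 and 1.53 in line 167 (limma adjusted p = 0.0926). When the filter was raised to the 50th percentile its limma adjusted p was 0.0383, and it ranged from 0.0383 to 1.0 over 8 alternatives. Grem1 and Fstl1 were 2 of the 3 members whose change was at least 2-fold in both lines, and in both genes the larger change was in line 365.

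The other antagonist genes lay nearer to their empty-vector signal than Grem1 and Fstl1 did in both lines. Chrdl1, a chordin-like BMP antagonist gene, had 6.09 and 5.52 with Smarcb1 and empty vector in line 365, and 7.23 and 5.91 in line 167, a change of 0.57 in line 365 and 1.33 in line 167 (limma adjusted p = 0.300). Bambi, a receptor-like protein without a kinase that blocks TGF-beta and BMP receptors, had 7.75 and 7.05 in line 365, and 7.88 and 6.99 in line 167, with Smarcb1 and empty vector. Both Smarcb1 arrays were above both empty-vector arrays. The change within a line was 0.69 in line 365 and 0.89 in line 167 (limma adjusted p = 0.246). Nog, which encodes the BMP antagonist noggin, differed by -0.0051 in line 365 and 0.99 in line 167. Fst, which encodes the activin antagonist follistatin, differed by -0.06 in line 365 and 0.88 in line 167. Chrd, the chordin gene, differed by 0.13 and 0.10, and Fstl3, another activin-binding protein gene, by -0.39 and 0.15, in lines 365 and 167.

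**Figure D3:**
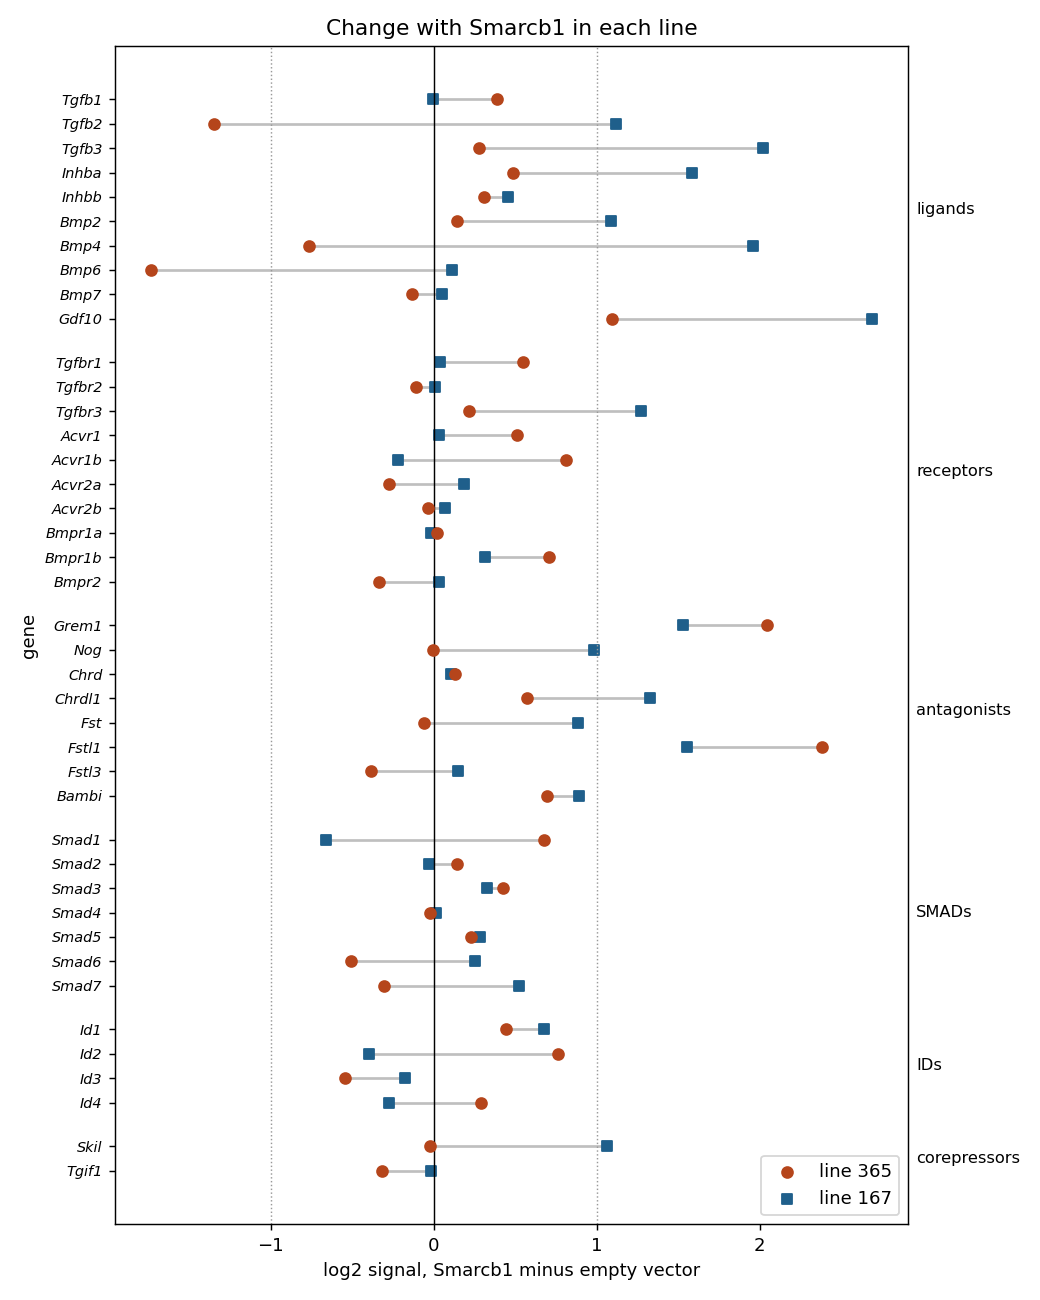
Each row is 1 of the 41 tested members, grouped by role. Circles give the log2 signal of Smarcb1 minus empty vector in line 365 and squares the same in line 167, 1 array pair per point, and dotted lines mark 2-fold. Most ligand and antagonist genes lie to the right in line 167, while the SMAD genes lie between -0.66 and 0.68.

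Among the genes acting inside the cell, 0 of the 7 SMAD genes, the 4 ID genes and the 2 corepressor genes passed with Smarcb1. Smad1, a receptor SMAD of the BMP branch, had 9.03 with Smarcb1 and 8.35 with empty vector in line 365, and 8.80 with Smarcb1 and 9.46 with empty vector in line 167. Its changes, 0.68 in line 365 and -0.66 in line 167, were opposite and nearly equal. Smad5, of the same branch, was higher by 0.23 and 0.29, and Smad3, of the TGF-beta and activin branch, by 0.43 and 0.33, in lines 365 and 167 (limma adjusted p = 0.569 and 0.422). Smad2 and the shared partner Smad4 stayed between -0.03 and 0.15. The inhibitory SMAD genes, both also targets of the pathway, were lower in line 365 and higher in line 167 with Smarcb1: Smad6 differed by -0.51 and 0.26 and Smad7 by -0.31 and 0.52.

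The ID genes differed in sign. Id1 was higher with Smarcb1 in both lines, by 0.45 in line 365 and 0.68 in line 167 (limma adjusted p = 0.337). Id3 was lower in both, with differences of -0.54 in line 365 and -0.18 in line 167 (limma adjusted p = 0.441). Id2 differed by 0.76 in line 365 and -0.40 in line 167, and Id4 by 0.29 and -0.28. Skil, which encodes the SMAD corepressor SnoN and is itself induced by TGF-beta, had 8.18 and 8.20 with Smarcb1 and empty vector in line 365, and 8.73 and 7.67 in line 167. It was 2.09-fold higher in line 167 and differed by -0.02 in line 365 (limma adjusted p = 0.564), while Tgif1, a homeobox corepressor gene, differed by -0.32 and -0.02.

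Between the tumour lines, averaged over the vectors, 7 of 41 members passed limma's adjusted threshold (17.1%), against 10.9% of all tested genes. Of the 7, 3 were higher in line 365 (7.32%; 5.31% of all) and 4 lower (9.76%; 5.64% of all). The error in this test is how far the line difference varied between the vectors, without repeat cultures of a line. Fst stood furthest apart: follistatin had 10.76 with Smarcb1 and 10.82 with empty vector in line 365, against 6.17 and 5.29 in line 167. All arrays of line 365 were far above those of line 167, by 5.06 on average or 33.3-fold (limma adjusted p = 0.00348). The related gene Fstl3 ran the other way, with 5.49 and 5.88 with Smarcb1 and empty vector in line 365, against 7.69 and 7.54 in line 167. It was 3.81-fold lower in line 365 (limma adjusted p = 0.0148).

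Fstl1 was lower in line 365, with differences of -1.85 with Smarcb1 and -2.67 with empty vector, or 4.79-fold on average (limma adjusted p = 0.0104). Grem1 was higher in line 365 by 1.33 with Smarcb1 and 0.81 with empty vector, or 2.10-fold (limma adjusted p = 0.0495). Both calls ended with the vector left out of the model, at limma adjusted p of 0.224 for Fstl1 and 0.505 for Grem1, the highest of 8 alternatives, with lowest values of 0.00354 and 0.0290. Fstl1 and Grem1 are thus the genes among the 7 that also differed most between the vectors.

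The other calls were receptor genes. Acvr1, a type I receptor gene for BMPs, had 7.34 and 6.82 with Smarcb1 and empty vector in line 365, against 9.16 and 9.13 in line 167, and was 4.17-fold lower in line 365 (limma adjusted p = 0.00974). Tgfbr2, the ligand-binding type II receptor gene of TGF-beta, was 2.92-fold lower in line 365, with differences of -1.60 with Smarcb1 and -1.49 with empty vector (limma adjusted p = 0.0117). Bmpr1a was 1.59-fold higher in line 365, by 0.69 and 0.66 (limma adjusted p = 0.0309). Without the intensity trend the Bmpr1a call ended, at limma adjusted p = 0.0683 in a range of 0.0180 to 0.0683 over 8 alternatives. The type I receptor genes of BMP signalling thus differed in both directions between the lines, Acvr1 lower and Bmpr1a higher in line 365. The SMAD genes gave 0 calls between the lines, and Smad2, Smad3, Smad4 and Smad5 stayed between -0.27 and 0.14 with either vector.

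**Figure D4:**
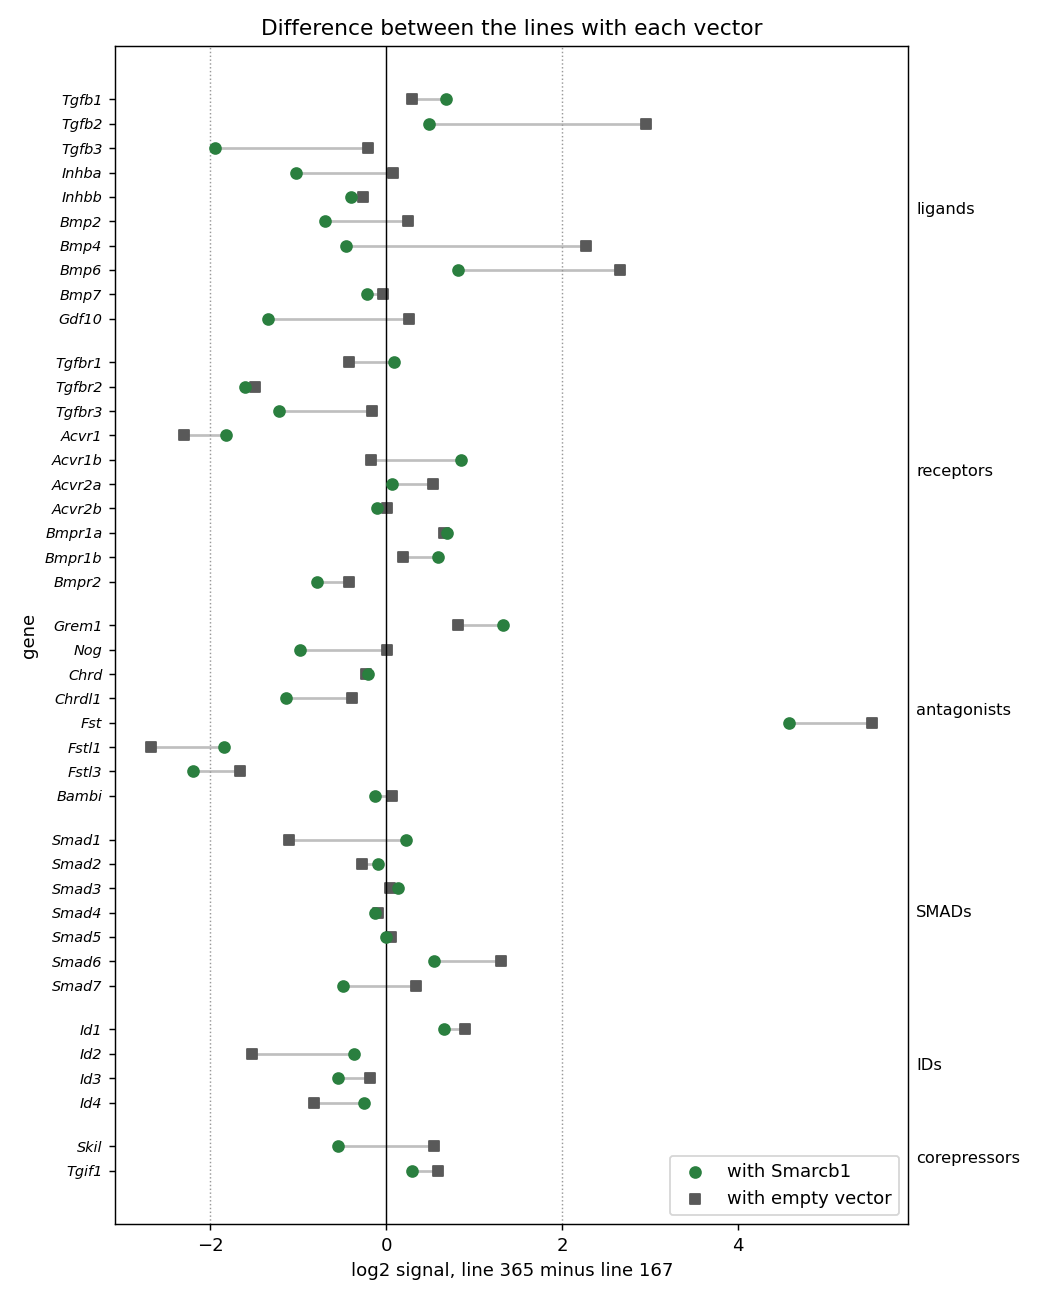
Each row is 1 of the 41 tested members, grouped by role. Circles give the log2 signal of line 365 minus line 167 with Smarcb1 and squares the same with empty vector, 1 array pair per point, and dotted lines mark 4-fold. Fst lies at 4.59 with Smarcb1 and 5.53 with empty vector, and Tgfb2, Bmp4 and Bmp6 lie beyond 2 with empty vector and within 1 with Smarcb1.

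With Smarcb1, 2 members differed at least 4-fold between the lines (4.88%; 2.63% of all tested genes), Fst and Fstl3. With empty vector, 6 members did (14.6%; 3.13% of all): Tgfb2, Bmp4, Bmp6, Acvr1, Fst and Fstl1. The gap between the lines was 0.49 with Smarcb1 and 2.95 with empty vector for Tgfb2, -0.46 and 2.27 for Bmp4, and 0.82 and 2.66 for Bmp6. Other ligand genes showed a wider gap with Smarcb1: -1.94 with Smarcb1 and -0.20 with empty vector for Tgfb3, -1.34 and 0.25 for Gdf10, and -1.03 and 0.08 for Inhba. Over all members the median size of the gap was 0.55 with Smarcb1 and 0.39 with empty vector, against 0.28 and 0.33 over all tested genes. The gap was smaller with Smarcb1 in 17 of 41 members (41.5%; 57.6% of all). How far the lines differ in response has no replicate array and was not tested.

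Beyond the members, 73 further pathway entries were listed, of which 68 matched a gene symbol and 53 were tested. With Smarcb1, 0 of the 53 passed limma's adjusted threshold, and 12 were higher (5.88% of all tested genes) and 0 lower (5.68% of all) at an unadjusted p under 0.05. At least 2-fold higher were 4 in line 365 (2.84% of all) and 11 in line 167 (3.4% of all), and at least 2-fold lower were 1 in line 365 (1.17% of all) and 0 in line 167 (1.49% of all). In both lines 3 were at least 2-fold higher (1.33% of all). Bmp1, which in spite of its name encodes a protease that cleaves procollagens and chordin, had 8.99 and 7.66 with Smarcb1 and empty vector in line 365, and 9.44 and 7.83 in line 167 (limma adjusted p = 0.0865). Bmper, a secreted BMP-binding regulator gene, had 7.29 and 6.08 in line 365, and 6.44 and 5.07 in line 167 (limma adjusted p = 0.124). Atoh8, a basic helix-loop-helix factor gene induced by BMPs, had 6.56 and 5.50 in line 365, and 8.06 and 6.76 in line 167 (limma adjusted p = 0.145). These 3 genes were named for being at least 2-fold higher in both lines, so the order of the vectors within a line follows from that rule. Across the lines, both Smarcb1 arrays were above both empty-vector arrays for Bmp1 and Bmper, but not for Atoh8. Atoh8 was 1 of 11 tested response genes outside the members, whose median change was 0.07 in line 365 and 0.20 in line 167. At least 2-fold higher were 1 of these in line 365 (2.84% of all) and 3 in line 167 (3.4% of all). Klf10 was lower, by -0.25 and -0.27, and so was Ldlrad4, by -0.11 and -0.39, in lines 365 and 167.

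Of the 8 mesenchymal or fibroblast markers, 0 passed limma's adjusted threshold with Smarcb1 and 1 had an unadjusted p under 0.05. Over the 8 the mean log2 signal was 7.48 with Smarcb1 and 7.44 with empty vector in line 365, and 10.16 with Smarcb1 and 9.21 with empty vector in line 167. At least 2-fold higher with Smarcb1 were 0 of the 8 in line 365 (2.84% of all tested genes) and 3 of the 8 in line 167 (3.4% of all), namely Thy1 and the collagen genes Col1a1 and Col1a2. Col1a1 differed by 0.03 in line 365 and 2.65 in line 167, whereas Vim differed by 0.09 and -0.22. None of the 8 was below the testing limit on all arrays, and their part in the changes of the members was not tested. Between the lines 4 of the 8 were lower in line 365 at limma's adjusted threshold (5.64% of all) and 0 were higher (5.31% of all). The 4 were Col3a1, by 36.6-fold, Pdgfrb, by 16.9-fold, Prrx1, by 6.98-fold, and Col1a2, by 4.42-fold.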

How the data were processed

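RNA of 4 samples was hybridised to whole-transcript arrays. The deposited table holds log2 signals per probe set, and the submitters' processing notes name RMA and Affymetrix Expression Console. The software version and its settings are not given in the sources. RMA brings all arrays to nearly the same distribution, so a change in total RNA per cell cannot be seen. Genes were named from the platform annotation: 21789 of 35556 probe sets had 1 symbol, 1621 had several and 12146 were not listed. The probe set of highest mean stood for a gene, and 13956 genes with a mean at or above log2 4.27, the 30th percentile, were tested. All 42 Entrez identifiers of the members' probe sets were found in the RefSeq gene table, and 0 symbols differed. Levels of different probe sets are not comparable.

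limma 3.58.1 in R 4.3.3 was fitted to all tested genes with a term for the cell line and one for the vector (lmFit, eBayes with an intensity trend, two-sided, Benjamini-Hochberg over all tested genes). The standard errors are moderated across genes, with 3.75 prior degrees of freedom. The pairing comes from the cell lines: arrays of a line deviated together from their vector means (r = 0.770 across genes). The labels name no repeat cultures, so no p-value measures the spread between cultures of a line. For the vector, the error is how far these lines differ in response. For the line difference, it is how far the gap between the lines differs between the vectors. Both rest on 1 residual degree of freedom besides the prior ones, and the number of arrays limits the precision. The fit was tested on simulated data. Members, lists and the rule for named genes were chosen with earlier results of these data known. Values on all arrays were given for members past 2-fold in a line or past 4-fold between the lines, and other pathway genes were named where they were past 2-fold the same way in both lines. Alternatives changed the filter, normalization, variance trend, block, probe set rule, threshold and lines used. The reading direction of the promoter table was checked by the position of TATAAA in promoters of minus-strand genes.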

Additional observations from a re-analysis of the deposited data

Results flagged for a closer look

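In 3 members the change with Smarcb1 went in opposite directions in the lines, by at least 1.5-fold each, against 0.494% of all tested genes. For Tgfb2 the change was -1.35 in line 365 and 1.12 in line 167, a difference of -2.46 on the log2 scale. Its empty-vector signal in line 167 was close to the testing limit. For Bmp4 it was -0.77 in line 365 and 1.96 in line 167, a difference of -2.73. For Smad1 it was 0.68 in line 365 and -0.66 in line 167, a difference of 1.34. Each rests on 1 array per line and vector, and the difference was not tested.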

How the results depend on the processing

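The count of members past limma's threshold with Smarcb1, 0 as reported, was 1 without the filter and 1 after cyclic loess (Fstl1 each time), and 2 with a filter at the 50th percentile and 2 at an adjusted p under 0.10 (Grem1 and Fstl1). It was 0 after quantile normalization, without the intensity trend, with the mean of all probe sets and with no term for the line. Among all genes it was 9 as reported, against 103 at an adjusted p under 0.10, 68 when dim genes were kept and 101 when the filter was raised to the 50th percentile. It was 49 with cyclic loess, 48 with quantile normalization and 0 with no term for the line. The count of members between the lines, 7 as reported, was 11 at an adjusted p under 0.10 and between 5 and 9 under the other alternatives. In the fit without the replicate block, that is without the cell line for the vector effect and without the vector for the line difference, the counts were 0 and 5. Leaving out each line in turn gave a median change of the members between 0.15 and 0.26, and no test is possible with 1 line. With 1 line left out, the sign of the Smarcb1 difference turned for 9 of 18 members (Tgfb2, Bmp4, Bmp6, Tgfbr2, Bmpr1a, Fst, Fstl3, Smad1 and Skil), for example to 1.12 for Tgfb2 (-0.11 as reported) and -0.77 for Bmp4 (0.60 as reported). With 1 vector left out, the sign of the line difference turned for 6 of 18 (Inhba, Bmp2, Bmp4, Gdf10, Smad1 and Skil), none of them among the 7 that passed. These values have no test. Under the 8 alternatives that keep all arrays, 274 of 286 single-gene values kept their direction and their side of the threshold. Of the others, 8 gained a call, 3 lost one, and the near-zero Smarcb1 change of Tgfbr2, -0.05 as reported, was 0.0073 after cyclic loess; the cause was not tested. Background correction could not be varied, since only summarised values were used here. Bmp2, Bmp7 and Bmpr1b were below the limit on some arrays.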
